A study of Homo sapiens with 4 samples.

Results

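The NEDD4 family of ubiquitin ligases and the adaptor proteins that work with it were followed by their messenger RNA levels in cells given a segmented or an intact miR-124 duplex or neither. The genes described are the ligases NEDD4, NEDD4L, ITCH, WWP1, WWP2, SMURF1 and SMURF2, the adaptors NDFIP1 and NDFIP2, and LITAF, 10 of the 19798 genes that own a probe set shared with no other gene. They were taken by name, all 10 were measured, and no filter on low values was used. Together they had 33 of the 35184 such probe sets, with only 1 for NEDD4 and 2 to 6 for each of the other genes. The changes of NEDD4 and LITAF with the segmented duplex stood at ranks 8 and 10 from the lowest of 19798. With the intact duplex they stood at ranks 94 and 57. The family was selected on these falls of NEDD4 and LITAF from mock. The changes of all 10 from mock are therefore described without a test.

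All samples were HCT-116 dicer- cells, a line from a human colon carcinoma whose Dicer, the processing enzyme of microRNAs, has been changed, and all were collected at 24 h. There was 1 array of cells transfected with 10 nM of the segmented miR-124 duplex G10.12/P, 1 array with 10 nM of the intact miR-124 duplex G/P, and 2 arrays of mock-transfected cells without duplex. The Dicer alteration is shared by all groups, and the labels give neither its nature nor whether the line is 1 clone. Total RNA was measured on 1-colour arrays, and levels are given as log2 of the deposited intensity. The series sets both duplexes against mock transfection to ask what a guide strand in segments still does.

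NEDD4 family ligases share a lipid-binding C2 domain, WW domains that grip short proline-rich motifs (PPxY) in other proteins, and a HECT domain that passes ubiquitin on to the protein held. Ubiquitin placed on a membrane protein marks it for uptake and sorting towards the lysosome, and in epithelia the family is best known for taking the epithelial sodium channel off the cell surface. NDFIP1 and NDFIP2 are membrane proteins of the Golgi and endosomes whose PPxY motifs recruit the ligases and release them from self-inhibition. LITAF is a small protein of late endosome membranes that also carries PPxY motifs and binds NEDD4 family ligases. Neurons are rich in miR-124, a microRNA that lowers messenger RNAs paired to its 5′ part, the seed.

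Each duplex is a single array, so its values have no replicate check, and the number of arrays limits every precision given here. Between the mock arrays the 10 genes differed by at most 0.11 on the log2 scale, and 3.23% of all genes by at least 1.5-fold. Across genes the levels of the mock arrays correlated with r = 0.997, and those of the 2 duplex arrays with r = 0.993; genes are not independent replicates. Of 8 measured colon epithelium markers, 5 lay above the median level of all genes in mock cells, among them EPCAM and CDH1, while VIL1, CDX1 and LGALS4 lay below it. Of 12 markers of other cell types 10 lay below it, PTPRC, PECAM1 and DES among them, with COL1A1 and ACTA2 above. The summed log2 level of these 12 markers was 55.7 with the segmented duplex, 57.7 with the intact duplex, and 55.0 and 55.9 on the mock arrays. ACTA2 alone rose by 2.23 with the intact duplex (limma adjusted p = 0.00822), and the median of the 12 was 3.97 (segmented), 4.05 (intact), and 4.09 and 4.36 (mock). The part of these markers in the results was not tested. DICER1, the gene of Dicer, had a level of 10.80 with the segmented duplex, 11.13 with the intact duplex and 11.24 ± 0.05 (SD, n = 2) in mock cells. By its brightest probe set neither change passed (limma -0.45, adjusted p = 0.122, and -0.11, adjusted p = 0.56). By the mean of its 5 probe sets, which all lay below mock, DICER1 was lower with the segmented duplex (-0.86, limma adjusted p = 0.0382) and stood at -0.42 with the intact duplex (limma adjusted p = 0.0728). Over the other settings tried the segmented adjusted p ran from 0.000628 to 0.123 and the intact one from 0.0728 to 0.65. Where these probe sets lie relative to the changed stretch is not given, so they check nothing.

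**Figure D1:**
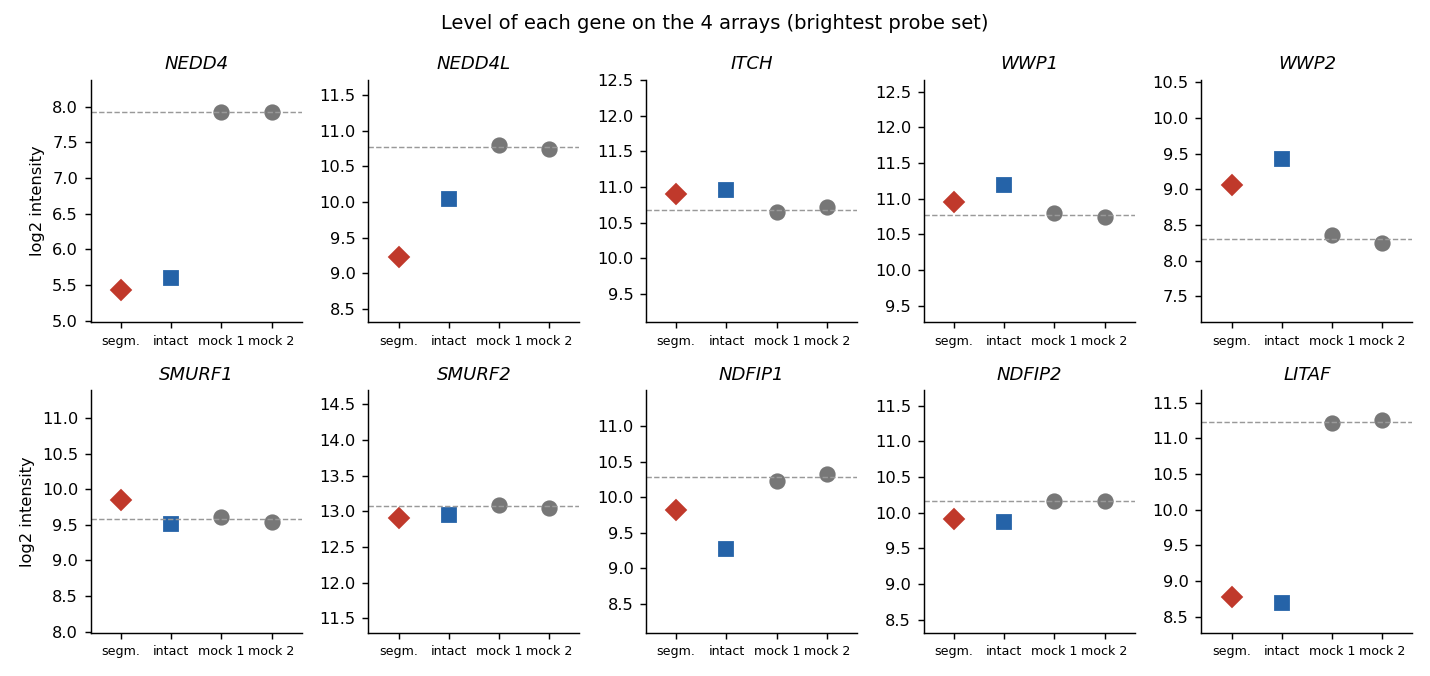
Log2 intensity (vertical axis) of the brightest probe set of each gene on the segmented, intact and 2 mock arrays, 1 point per array; each panel spans the same log2 range around its own values, and the dashed line is the mean of the mock arrays. NEDD4 and LITAF lie more than 2 log2 units below mock with both duplexes, NEDD4L lies lowest with the segmented duplex, NDFIP1 lowest with the intact duplex, and WWP2 lies above mock with both.

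NEDD4, the founding ligase of the family, had a log2 level of 5.43 with the segmented duplex and 5.60 with the intact duplex, against 7.93 on each mock array (7.93 ± 0.00017, SD, n = 2). Both duplex arrays lay far below the mock arrays, and they stood closer to each other than either stood to mock. The change from mock was -2.50 with the segmented duplex, a 5.65-fold lower level, and -2.32 with the intact duplex, 5.01-fold lower. In intensity this was 43.1 (segmented) and 48.6 (intact), against 243.4 and 243.5 on the mock arrays. Less RNA per cell and fewer cells that carry the RNA cannot be told apart in such bulk samples. NEDD4 rests on its single probe set, so no other probe set checks it, and no detection call was used to place the duplex levels against background.

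NEDD4L, the close relative of NEDD4 that acts on the epithelial sodium channel, had a level of 9.23 with the segmented duplex, 10.03 with the intact duplex, and 10.79 and 10.74 on the mock arrays. The 3 conditions were well apart, in the order segmented, intact, mock, with the mock arrays within 0.05 of each other. The changes from mock were -1.53 (segmented, 2.90-fold lower) and -0.73 (intact, 1.66-fold lower). With the segmented duplex 0.535% of all genes had a lower change than NEDD4L, and with the intact duplex 8.20% did. Its probe sets did not give the same picture of the duplexes. The second brightest followed the brightest, with -1.56 (segmented) and -0.73 (intact), while the third gave -0.71 (segmented) and -0.77 (intact). All 3 probe sets thus lay below both mock arrays with both duplexes, as 39.1% (segmented) and 40.6% (intact) of all probe sets did, and the lower level with the segmented duplex was seen by 2 of them.

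WWP2, a ligase that marks among others the transcription factor OCT4, was the member furthest above mock. It had a level of 9.06 with the segmented duplex, 9.42 with the intact duplex, and 8.36 and 8.25 on the mock arrays. Both duplex arrays lay above both mock arrays, by 0.75 (segmented, 1.68-fold) and 1.11 (intact, 2.16-fold) on average. The second probe set of WWP2 gave 0.88 (segmented) and 0.80 (intact), so the order of the duplexes was not the same in both. With each array centred on its median the changes of the brightest probe set were 0.55 (segmented) and 0.87 (intact).

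Its relative WWP1, a ligase of KLF5 and TGF-beta pathway proteins, had levels of 10.95 with the segmented duplex, 11.19 with the intact duplex, and 10.80 and 10.74 on the mock arrays. The change was 0.18 with the segmented duplex, which turned to -0.02 with arrays centred on their medians, and 0.42 with the intact duplex (0.18 centred). The dimmest probe set repeated this with 0.12 (segmented) and 0.40 (intact), and the middle one lay between the mock arrays with both duplexes. ITCH, which marks JUNB and NOTCH proteins and is known for restraining T cell inflammation, had levels of 10.91 (segmented), 10.96 (intact), and 10.65 and 10.72 (mock). Its brightest probe set was thus a little higher with both duplexes, by 0.23 and 0.28, and by 0.03 and 0.04 with centred arrays. Its second probe set was lower with both, by -0.25 each, so no single direction held for ITCH.

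The SMURF ligases mark SMAD proteins and receptors of the TGF-beta and BMP pathways. SMURF1 had levels of 9.86 with the segmented duplex, 9.52 with the intact duplex, and 9.61 and 9.54 on the mock arrays. The segmented array lay above both mock arrays by 0.28 on average (0.08 with centred arrays), whereas the intact array lay 0.06 below their mean, a distance close to the 0.07 between the mock arrays. The second probe set of SMURF1 gave 0.25 (segmented) and 0.06 (intact), and the dimmest gave -0.06 and 0.11 within a mock difference of 0.24. SMURF2 stood at 12.90 (segmented), 12.95 (intact), and 13.09 and 13.05 (mock), changes of -0.17 and -0.12. Over its 4 probe sets the changes ran from -0.27 to 0.05 with the segmented duplex and from -0.32 to -0.12 with the intact duplex. These 4 genes, WWP1, ITCH, SMURF1 and SMURF2, thus all stayed within 0.42 of mock by the brightest probe set.

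**Figure D2:**
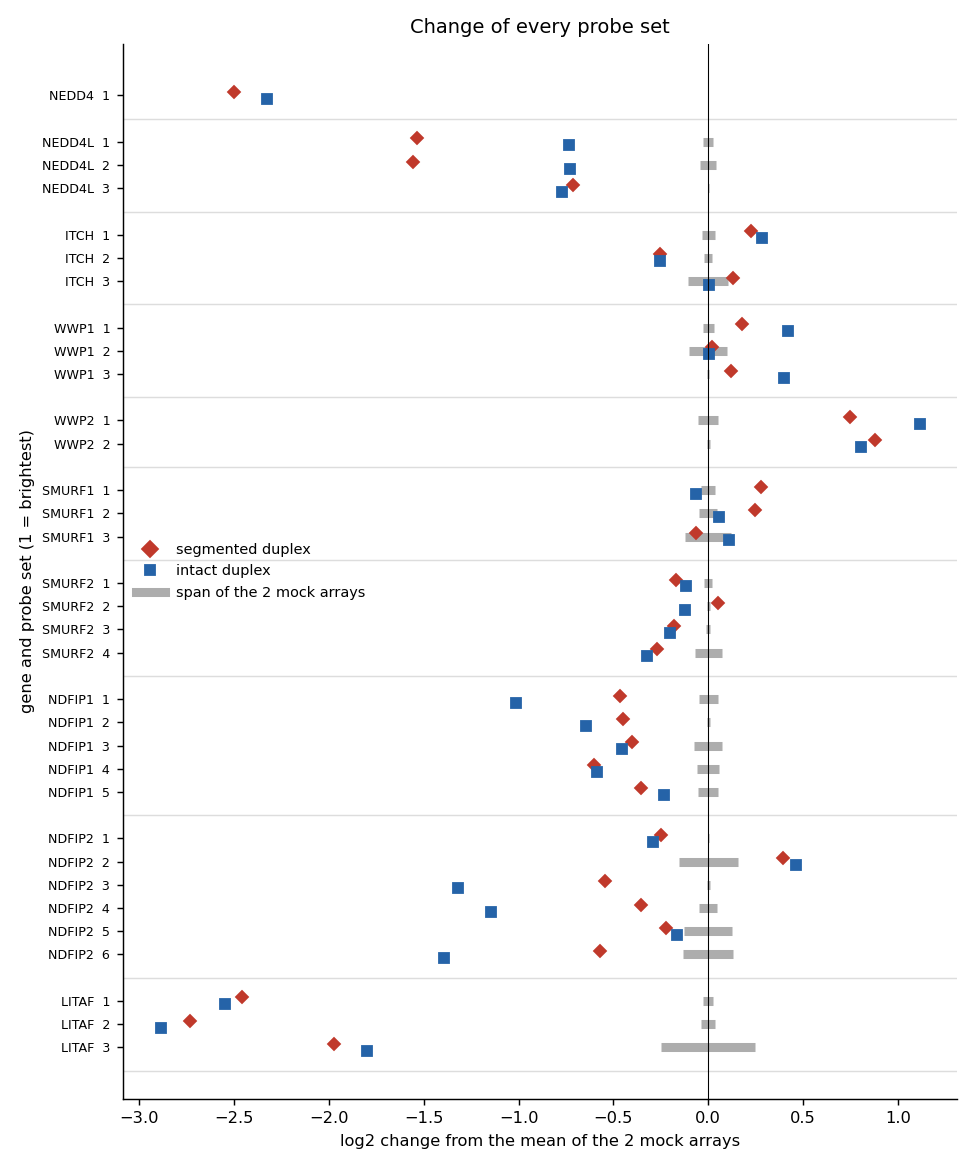
Log2 change from the mean of the mock arrays (horizontal axis) for all 33 probe sets, ordered by gene and from the brightest (1) downwards; red diamonds are the segmented and blue squares the intact duplex, and grey bars span the 2 mock arrays. All 3 LITAF probe sets lie at -1.80 or lower with both duplexes, 2 of 3 NEDD4L probe sets lie lower with the segmented duplex, and 3 of 6 NDFIP2 probe sets lie below -1.1 with the intact duplex alone.

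Of the adaptors, NDFIP1 had levels of 9.81 with the segmented duplex, 9.27 with the intact duplex, and 10.23 and 10.33 on the mock arrays. It was lower than both mock arrays with both duplexes, by -0.47 (segmented, 1.38-fold) and -1.01 (intact, 2.02-fold). All 5 probe sets of NDFIP1 lay below both mock arrays with each duplex. Their changes ran from -0.60 to -0.35 with the segmented duplex and from -1.01 to -0.23 with the intact duplex. The larger change with the intact duplex came mainly from the brightest probe set, where the duplexes differed by 0.55, against 0.20 in the next and at most 0.12 in size in the other 3.

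NDFIP2 had levels of 9.91 (segmented) and 9.87 (intact), against 10.16 on each mock array, by its brightest probe set. That is a change of -0.25 with the segmented and -0.29 with the intact duplex. The 6 probe sets of NDFIP2 fell into separate patterns. The second brightest was higher with both duplexes, at 0.39 (segmented) and 0.46 (intact), with the mock arrays 0.31 apart. Those numbered 3, 4 and 6 by brightness had changes of -0.55, -0.36 and -0.57 with the segmented duplex, and of -1.32, -1.14 and -1.39 with the intact duplex. Which probe set stands for NDFIP2 therefore decides its change, and with the mean of all 6 it was -0.26 (segmented) and -0.64 (intact).

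LITAF had a level of 8.77 with the segmented duplex and 8.68 with the intact duplex, against 11.21 and 11.26 on the mock arrays. The duplex arrays lay within 0.09 of each other and far below mock, at -2.46 (segmented, 5.50-fold lower) and -2.55 (intact, 5.86-fold lower). In intensity these levels were 438.0 (segmented) and 411.1 (intact), against 2366 and 2452 on the mock arrays. Its second probe set gave -2.73 (segmented) and -2.89 (intact). The dimmest gave -1.97 and -1.80, with the mock arrays 0.50 apart. LITAF was thus lower in all 3 probe sets with both duplexes, and 10 genes in all had a change of -2.46 or lower with the segmented duplex. With the intact duplex its change stood at rank 57 from the lowest.

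**Figure D3:**
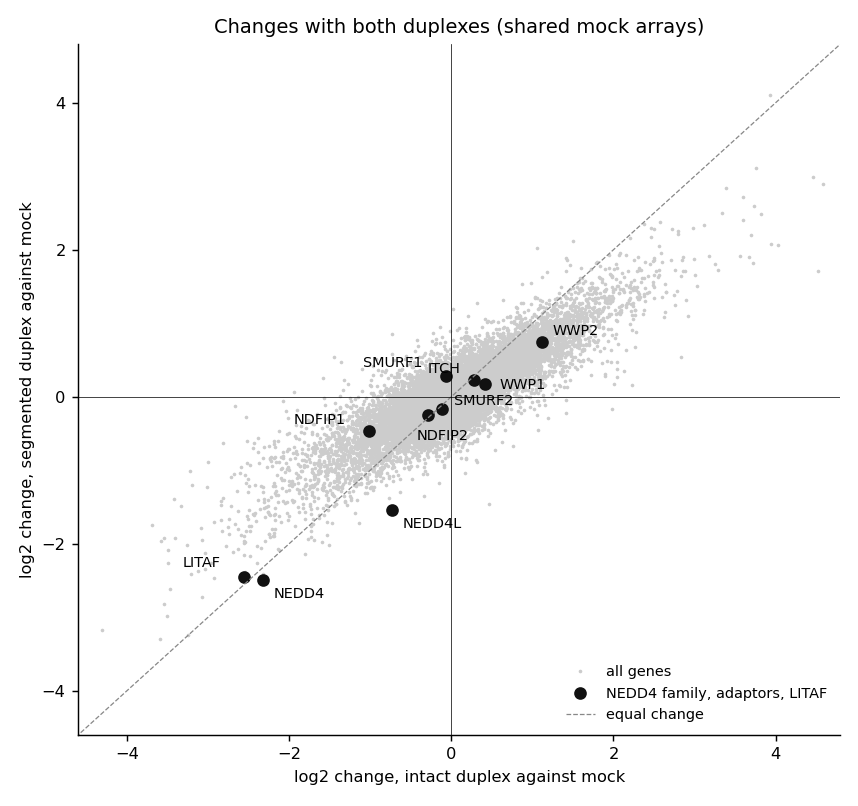
Log2 change from mock with the intact duplex (horizontal axis) and with the segmented duplex (vertical axis) for all 19798 genes (grey) and the 10 genes described (black); both axes use the same mock arrays, and the dashed line marks equal changes. LITAF (-2.55, -2.46) and NEDD4 (-2.32, -2.50) lie together at the lower left, NEDD4L lies below the line and NDFIP1 above it.

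At least 1.5-fold from both mock arrays, 3 of the 10 genes were lower with the segmented duplex (NEDD4, NEDD4L and LITAF) and 1 higher (WWP2), against 4.89% and 7.37% of all genes. With the intact duplex 4 were lower (the same 3 genes and NDFIP1) and 1 higher (WWP2), against 9.52% and 13.7%. With centred arrays WWP2 no longer reached this size with the segmented duplex, and with the mean of probe sets NDFIP1 no longer did with the intact duplex. The median change of the 10 was -0.21 with each duplex, and that of all genes was 0.01 (segmented) and 0.02 (intact). Nothing is read from these counts and medians, since results of these arrays were known when the genes were chosen. Of the 33 probe sets, 21 lay below and 10 above both mock arrays with the segmented duplex, against 39.1% and 40.7% of all probe sets. With the intact duplex 23 lay below and 7 above, against 40.6% and 43.4%. The arrays differ in their medians over genes, which were 0.19 (segmented) and 0.24 (intact) above mock, so centring lowers every change from mock by these amounts.

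The difference between the duplexes was tested for the 8 genes other than NEDD4 and LITAF, with limma over all genes. None of the 8 passed after Benjamini-Hochberg adjustment, as 0 of all 19798 genes did (0% called); at an unadjusted p of 0.05, 3273 genes passed, 16.5%, with NEDD4L and NDFIP1 among them. NEDD4L had the largest difference of the 8, with 9.23 on the segmented and 10.03 on the intact array, -0.80 with a 95% interval from -1.20 to -0.41 (limma adjusted p = 0.184). Over the other settings tried its limma adjusted p ran from 0.000101 to 0.225. It passed when the dimmest genes were left out, with 16 added to each intensity and with a trended and robust prior. Of all genes 1850 of 11879, 1135 of 19798 and 2412 of 19798 passed there, in that order. NDFIP1 had 9.81 on the segmented and 9.27 on the intact array, 0.55 with an interval from 0.13 to 0.96. Its limma adjusted p was 0.242, and from 0.00554 to 0.68 over all the other settings tried. It passed with that prior and with the dimmest genes left out. By the brightest probe set the intervals of the other 6 genes all held 0, and ran from -0.78 to 0.05 for WWP2 and from -0.06 to 0.74 for SMURF1. Whether an interval held 0 depended on the probe set for NEDD4L, NDFIP1 and NDFIP2. The third probe set of NEDD4L differed by 0.06 (interval -0.35 to 0.46). Of the 5 of NDFIP1 only the brightest had an interval that did not hold 0. Those of NDFIP2 numbered 3, 4 and 6 by brightness differed by 0.77 (interval 0.37 to 1.18), 0.79 (0.37 to 1.21) and 0.82 (0.28 to 1.36). These intervals lay above 0 but with limma adjusted p = 0.178, 0.179 and 0.213 over all probe sets. NEDD4 and LITAF, given without a test, differed by -0.17 and 0.09.

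**Figure D4:**
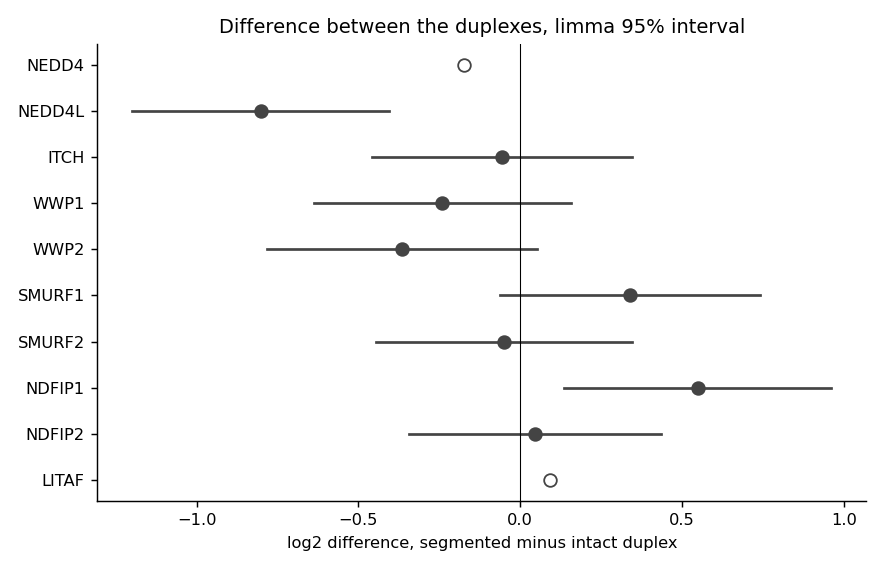
Log2 difference between the segmented and the intact array (horizontal axis, segmented minus intact) for each gene, by its brightest probe set, with limma's 95% interval; open points are NEDD4 and LITAF, given without a test. The intervals of NEDD4L and NDFIP1 lie to either side of 0, neither with an adjusted p under 0.05, and those of the other 6 tested genes, by the brightest probe set, hold 0.

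The genes whose pair of changes lay nearest to NEDD4 were sought among 9898 genes above the median level in mock cells, by the Euclidean distance between both log2 changes. They were CTDSPL, a small phosphatase gene (distance 0.0874), LITAF (0.229), the chaperone partner gene DNAJC1 (0.248) and GPAT3, an acyltransferase of lipid synthesis (0.25). The nearest to LITAF were GPAT3 (0.0696), NEDD4 (0.229), CTDSPL (0.233) and DNAJC1 (0.253). CTDSPL had levels of 8.30 (segmented) and 8.39 (intact), against 10.71 on each mock array. Both changes use the same mock arrays, so such nearness is a description of 4 arrays. NEDD4 and LITAF were also chosen for these falls, so nothing is read from their nearness to each other.

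The 6 wider lists were chosen with earlier results known, and their calls come from the fit over all genes, with 1 array per duplex. The remaining NEDD4 family ligases are HECW1 and HECW2. HECW1 had 7.28 with the segmented duplex, 7.39 with the intact duplex, and 6.27 and 6.45 on the mock arrays. It rose with the intact duplex by 1.03 (limma adjusted p = 0.0182) and stood at 0.92 with the segmented duplex (limma adjusted p = 0.0517). By the mean of its 2 probe sets HECW1 passed with both duplexes, at 0.77 (segmented) and 0.74 (intact). HECW2 stood at 6.72 (segmented), 6.57 (intact), and 6.41 and 6.52 (mock), without passing. In the list of 21 other HECT ligases, these 2 included, 19 were measured. With the segmented duplex 1 rose and 0 fell (limma calls 3.31% of all genes higher and 2.68% lower), and with the intact duplex 7 rose and 0 fell (14.5% and 10.4% of all genes). HERC6, an interferon-induced member, rose by 1.04 (segmented) and 1.32 (intact). HECTD4 (1.07) and HACE1 (0.97), a ligase of the small GTPase RAC, rose with the intact duplex, although 2 of 3 probe sets of HECTD4 and 1 of 2 of HACE1 moved oppositely with the segmented duplex. HECTD4 did not pass by the mean of its probe sets (limma adjusted p = 0.122). By the brightest probe set HECTD4 stood at 0.52 and HACE1 at 0.72 with the segmented duplex. The median of the 19 was 0.24 (segmented) and 0.33 (intact), and 0.05 and 0.09 with arrays centred on their medians.

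Ubiquitin reaches these ligases through activating and conjugating enzymes, of which 21 of 27 listed were measured. For the segmented duplex 1 of them rose and 0 fell (3.31% and 2.68% of all genes), for the intact duplex 2 rose and 1 fell (14.5% and 10.4%). The conjugating enzyme gene UBE2G1 rose by 0.89 (segmented) and 1.05 (intact), with 1 of its 2 probe sets going the other way, and passed with neither duplex by the mean of both (limma adjusted p = 0.162 segmented, 0.235 intact). UBE2H rose by 0.77 with the intact duplex and stood at 0.48 with the segmented duplex. UBA6, an activating enzyme gene, fell with the intact duplex (-0.83, limma adjusted p = 0.0207). With the segmented duplex it stood at -0.78 by its brightest probe set (limma adjusted p = 0.0529). None of its 8 probe sets went the other way with either duplex. By the mean of these 8, UBA6 fell with both duplexes (limma adjusted p = 0.0347 segmented, 0.0107 intact). The list's median was 0.10 with each duplex, and -0.10 (segmented) and -0.14 (intact) with centred arrays.

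Among other adaptors and PPxY proteins, 29 of 31 listed were measured. Of these, 2 rose and 0 fell with the segmented duplex, against 3.31% and 2.68% of all genes, and 6 rose while 3 fell with the intact duplex, against 14.5% and 10.4%. ARRDC4, an arrestin-domain protein that brings these ligases to membrane cargo, had 7.19 (segmented) and 7.68 (intact), against 6.04 and 6.07 on the mock arrays, and rose by 1.14 and 1.63. CDIP1, a relative of LITAF, stood above mock where LITAF stood below it. Its levels were 7.21 (segmented) and 7.94 (intact), against 6.15 and 6.47 on the mock arrays, a rise of 1.63 with the intact duplex (limma adjusted p = 0.0131) and 0.90 with the segmented duplex (limma adjusted p = 0.0764). By the mean of its 2 probe sets these were 0.86 (intact) and 0.46 (segmented). WBP1L rose by 1.09 (segmented) and 0.85 (intact). SMAD7, the inhibitory SMAD that carries SMURF ligases to TGF-beta receptors, rose by 1.06 with the intact duplex and stood at 0.17 with the segmented duplex. LAPTM4A, a lysosomal membrane protein gene, fell with the intact duplex (-1.10) and stood at -0.15 with the segmented duplex. ENTREP3 (-0.77) and PRRG4 (-0.79) fell with the intact duplex as well, PRRG4 no longer by the mean of its probe sets (limma adjusted p = 0.0616). With the segmented duplex ENTREP3 stood at -0.04 and PRRG4 at -0.34. The list's median was 0.06 (segmented) and 0.18 (intact), and turned to -0.13 and -0.06 with centred arrays.

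The endosomal sorting machinery receives ubiquitin-marked cargo, and 25 of its 27 listed genes were measured. With the segmented duplex 0 passed by limma, against 3.31% of all genes higher and 2.68% lower. Under the trended and robust prior 13 passed after adjustment, where 5415 of all 19798 genes did. With the intact duplex 8 rose and 3 fell, against 14.5% and 10.4%. CHMP2B, a late sorting subunit, fell with the intact duplex (-1.12, and -0.69 by the mean of its 2 probe sets), as did MVB12A (-0.95) and STAM2 (-0.82), an early subunit that binds ubiquitin, of which 1 of 2 probe sets went the other way and the mean of both did not pass (limma adjusted p = 0.107). CHMP6 (1.00) and VPS25 (0.90) rose with the intact duplex. With the segmented duplex, where none passed, the changes were -0.75 (CHMP2B), -0.24 (MVB12A), -0.82 (STAM2), 0.64 (CHMP6) and 0.67 (VPS25). The median was 0.24 (segmented) and 0.28 (intact), and 0.05 and 0.03 with centred arrays.

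Of 40 listed substrates, proteins known to be marked by the family, 37 were measured. With the segmented duplex 1 rose and 5 fell (3.31% and 2.68% of all genes), and with the intact duplex 6 rose and 7 fell (14.5% and 10.4%). TGFBR3, a co-receptor gene of the TGF-beta pathway, fell with both (-1.60 segmented, -1.73 intact), although 1 of its 2 probe sets was higher with the intact duplex and the mean of both was -0.82 there. The receptor gene TGFBR1 (-1.11, -1.24) and JUN (-1.13, -0.93) fell with both duplexes as well. The transcription factor gene KLF2 had 6.56 (segmented) and 4.92 (intact), against 7.58 and 7.45 on the mock arrays, changes of -0.95 and -2.59. KLF2 rests on 1 probe set, and its levels with both duplexes lay below the median of all genes in mock cells (6.62). SLC1A1, a glutamate transporter gene, rose by 0.92 and 1.59. SMAD5 fell with the intact duplex (-1.42) and stood at -0.18 with the segmented duplex. The receptor genes BMPR2 (1.20), INSR (0.97), CXCR4 (0.89) and IGF1R (0.82) and the metal transporter gene SLC11A2 (0.63) rose with the intact duplex, with 2 of 4 probe sets of IGF1R going the other way. With the segmented duplex, where none of them passed, they stood at 0.75 (BMPR2), 0.59 (INSR), 0.54 (CXCR4), 0.26 (IGF1R) and 0.43 (SLC11A2). With the mean of probe sets JUN (segmented, limma adjusted p = 0.057), IGF1R (0.219) and SLC11A2 (0.0805) no longer passed, nor did SLC11A2 with centred arrays (0.0874). The median was 0.08 (segmented) and -0.03 (intact), and -0.12 and -0.28 with centred arrays.

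Of 15 listed deubiquitinases, kinases and binding partners that act on the family 14 were measured. Of these, 1 rose with the segmented and 3 with the intact duplex, and 0 fell with either. Of all genes 3.31% (segmented) and 14.5% (intact) rose, and 2.68% (segmented) and 10.4% (intact) fell. TRAF4, a binding partner of SMURF ligases and neither a deubiquitinase nor a kinase, was the 1 gene called with the segmented duplex. It rose by 0.86 (segmented) and 1.52 (intact). The kinase gene FYN, at 8.58 (segmented) and 9.54 (intact) against 8.11 and 7.97 on the mock arrays, rose with the intact duplex, as did PRKACA by 0.71. With centred arrays TRAF4 (segmented, limma adjusted p = 0.052) and PRKACA (0.0591) no longer passed. With the segmented duplex FYN stood at 0.54 and PRKACA at 0.36. The median was 0.23 (segmented) and 0.21 (intact), and 0.04 and -0.03 with centred arrays. In none of these 6 lists did a gene differ between the duplexes by limma after adjustment. At an unadjusted limma p of 0.05 there were 1 to 8 genes per list, against 16.5% of all genes. After adjustment under the trended and robust prior there were 2 to 7 per list, against 2412 of all 19798 genes.

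**Figure D5:**
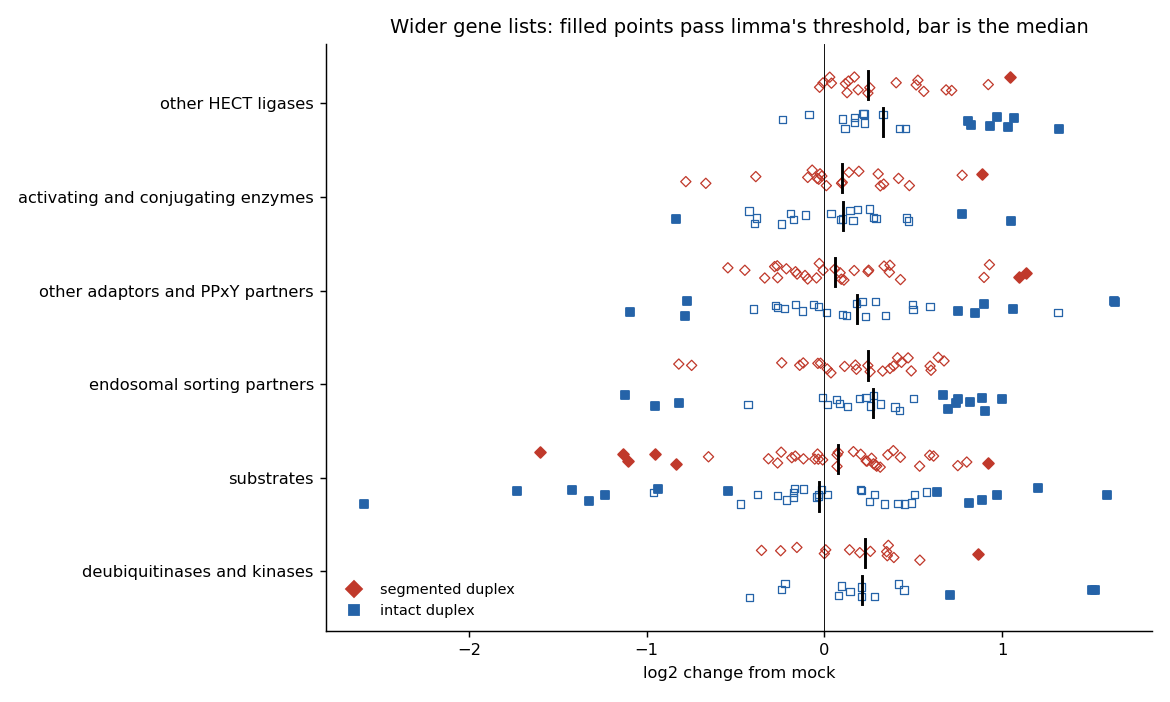
Log2 change from mock (horizontal axis) of each measured gene of 6 wider lists, with the segmented duplex in red diamonds and the intact duplex in blue squares; filled points have a limma adjusted p under 0.05 and black bars are medians. With the fit drawn here more points are filled with the intact duplex in every list. Under other settings tried this did not always hold for the deubiquitinases and kinases. KLF2 (-2.59, intact) stands furthest left, and several medians change sign with centred arrays, as given in the text.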

How the data were processed

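Levels were measured on 4 arrays (1 segmented, 1 intact, 2 mock). The deposited intensities were made by the authors with RMA, per the submitters' processing notes; neither its version nor a genome build is given in the sources used here. This method normalizes by quantiles, so a change shared by most genes would be removed. Values from 2.51 to 22268 on all 52377 probe sets were taken as linear and turned into log2 with no pseudocount. Gene names came from the platform's annotation, with symbols updated by Entrez identifier to RefSeq (35134 matched, 50 not); 374 with several genes and 16819 not listed were left out. The probe set with the highest mean stood for a gene. Of the genes named from the wider lists, HECW2, ARRDC4, SMAD7, ENTREP3, CHMP6, MVB12A, VPS25, KLF2, CXCR4 and PRKACA had 1 probe set each.

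Limma 3.58.1 in R 4.3.3 was fitted over 19798 genes with a mean per group (1 residual and 2.89 prior degrees of freedom), at a Benjamini-Hochberg adjusted p of 0.05. The spread of a single duplex array is taken to equal that of the mock pair. The labels do not say whether the mock arrays are separate cultures, so p-values measure only the spread between them, which may be technical.

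The 10 genes and the 6 wider lists were chosen with earlier results of these data known. Named were the 10 genes, DICER1, HECW1, HECW2, CDIP1, the 4 nearest genes to NEDD4 and to LITAF, and per list and duplex up to 4 genes with the largest change past the threshold, plus any past it in the other direction. Of 161 listed genes 16 were not analysed here. Alternatives were a further quantile normalization, centred arrays, leaving out the dimmest 40% of genes, the mean of probe sets, log2(intensity + 16), a trended and robust prior, a 2-fold size, and leaving out each mock array.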

Additional observations from a re-analysis of the deposited data

How the results depend on the processing

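Among 202 repeats of the changes of the 10 genes 4 turned sign, each of a change that had not been called: with centred arrays WWP1 (segmented against mock, -0.02), and with the mean of probe sets SMURF1 (intact against mock, 0.03), ITCH and SMURF2 (segmented minus intact, 0.02 and 0.05). At 2-fold in place of 1.5-fold, 3 of the 10 genes stood apart from mock with the intact duplex in place of 5 (NEDD4, LITAF and WWP2), and 3 with the segmented duplex in place of 4. Leaving out a mock array gave 5 to 5 genes for the intact and 4 to 4 for the segmented duplex, and medians from -0.21 to -0.20 and from -0.22 to -0.20. With centred arrays the median of the 10 was -0.45 (intact), -0.40 (segmented) and -0.0033 (segmented minus intact). With the mean of probe sets it was -0.39 (intact) and 0.024 (segmented minus intact), and with a further quantile normalization -0.22 (segmented) and -0.071 (segmented minus intact). Genes past limma's threshold over all genes were 1186 for the segmented duplex, 1849 with centred arrays, 4781 without the dimmest 40%, 4265 with 16 added and 5415 with the trended and robust prior. For the intact duplex they were 4937, and 7809 with that prior. Between the duplexes they were 0, and 1850 without the dimmest genes, 1135 with 16 added and 2412 with that prior. Tested per probe set, an alternative chosen after seeing the data, they were 2434 (segmented), 8970 (intact) and 0 (between the duplexes). Of the calls 44.8% (segmented) and 41.8% (intact) were lower, and 67.9% and 67.2% with centred arrays. For the wider lists 55 of 108 counts stayed within 1.5 times, 52 were higher and 1 lower. Without a mock array limma has no residual degrees of freedom, so no test was made there. The cause of these shifts was not tested. No paired analysis was possible because each duplex has 1 array, so the groups share fewer than 2 numbers.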
